A study of Homo sapiens with 6 samples.

Results

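The E2 ubiquitin-conjugating enzymes of H2122 cells, which derive from a human lung adenocarcinoma, were taken as the genes whose symbols in the deposited count table begin with UBE2 and a letter. Of 41 such rows, 6 were annotated as pseudogenes by RefSeq and left out, so 35 of the 23368 genes in the table were members. They were chosen by symbol, with no level or fold change in the rule, but the family was picked for description when results of the same comparison were already known. Its fold changes and the calls made from them are therefore descriptions, and no test was made of the family as a group.

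RNA was sequenced 48 hours after transfection of LYCAT shRNA (3 libraries) or of control shRNA (3 libraries). LYCAT is an earlier symbol for LCLAT1, an acyltransferase of phospholipids. The cells were otherwise the same line, and the labels state no other difference between the groups. Whether replicates were grown as separate cultures is not stated, so each p-value reflects the variation among these 6 libraries, part or all of which may be technical. The shRNA sequences are not given in the labels, and each group has a single shRNA label, so effects of losing LCLAT1 and other effects of that shRNA cannot be told apart.

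Ubiquitin is attached to proteins by a chain of enzymes. An E1 enzyme activates it, an E2 enzyme carries it as a thioester on a cysteine, and an E3 ligase brings the E2 to the substrate. The E2 often decides which kind of ubiquitin chain is built, and some members of the family carry other modifiers (NEDD8, SUMO or ISG15) in place of ubiquitin. In dividing tumour cells the family is best known through UBE2C and UBE2S, which work with the anaphase-promoting complex in mitosis, and UBE2T, which works in the Fanconi anaemia pathway of DNA repair.

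The deposited counts summed to 3118946 to 4730453 per LYCAT shRNA library and 4075367 to 4930079 per control library, and 11097 genes were abundant enough to test. LCLAT1 itself stood at 89, 70 and 101 counts in the LYCAT shRNA libraries and at 265, 302 and 265 counts in the control libraries (log2 fold change -1.50, SE 0.114, edgeR quasi-likelihood adjusted p = 1.15e-18). Of the markers of the line's epithelial type, 6 of 6 were detected, with a summed level of 1432 to 1498 CPM with LYCAT shRNA and 1607 to 1697 CPM with control shRNA. All 6 had negative log2 fold changes. KRT7, KRT8, KRT18 and CDH1 were lower (edgeR adjusted p = 1.21e-05, 0.000132, 0.00178 and 0.0345), 66.7% of the list where 9.26% of all tested genes were lower. CPM are read counts scaled to a common library size. Of 9 blood and endothelial markers, 4 had no count in any library (PTPRC, CD3E, PECAM1 and CDH5). Fibroblast markers differed between libraries: their summed level was 37.0, 18.7 and 31.1 CPM in LYCAT shRNA libraries 1 to 3 and 85.3, 128.5 and 30.8 CPM in control libraries 1 to 3. COL1A1 made up most of each sum, at 59.4, 82.7 and 28.3 CPM in control libraries 1 to 3. PDGFRB had at most 3 counts in any library and DCN at most 1, so the sums reflect mainly collagen genes. Control libraries 1 and 2 stand apart in these sums, and calls that are lost or gained without them among the genes named below are marked.

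With LYCAT shRNA, most changes in the family were small. Of the 35 members, 31 passed the filter on low counts, and of these 6 were higher (UBE2B, UBE2Q1, UBE2D3, UBE2F, UBE2J1 and UBE2N), 2 were lower (UBE2L6 and UBE2T) and 23 did not pass an edgeR adjusted p of 0.05. The higher members were 19.4% of those tested and the lower 6.45%, 25.8% together. Over all tested genes 9.81% were higher and 9.26% lower, 19.1% together. Among tested genes at or above the level of UBE2W these shares were 12.8%, 11.2% and 24.0%. The family's shares above include UBE2L6 and UBE2D4, which lie below that level. Without UBE2L6 the family's shares were 20.0%, 3.33% and 23.3%. The 8 members lie near the share found for genes in general in both directions together. The share of higher members was above it, a difference that was not tested. UBE2B, one of the human RAD6 enzymes, had the clearest change, 1.41-fold higher. UBE2L6, the enzyme that carries the interferon-induced modifier ISG15, was lower by 2.94-fold, from few counts. The other 6 called members moved by 0.17 to 0.34 on the log2 scale.

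The family's log2 fold changes had a median of 0.10, where that of all tested genes was -0.006. They were positive for 25 of the 31 tested members (80.6%) and negative for 6, and ran from -1.56 for UBE2L6 to 0.49 for UBE2B. Of all tested genes 49.0% were positive. The 3 libraries of each group did not overlap for 12 members, of which 11 were above in LYCAT shRNA and 1 below. Over all tested genes 16.6% lay above and 16.2% below without overlap. The summed level of the family was 4894, 4880 and 4942 CPM with LYCAT shRNA and 4570, 4545 and 4686 CPM with control shRNA. All 3 LYCAT shRNA libraries were above the 3 control libraries in this sum, with means of 4905 ± 32.6 and 4600.3 ± 75.4 CPM (SD, n = 3 each). CPM are relative to the other counts of a library, so this sum does not give the amount of RNA per cell.

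**Figure D1:**
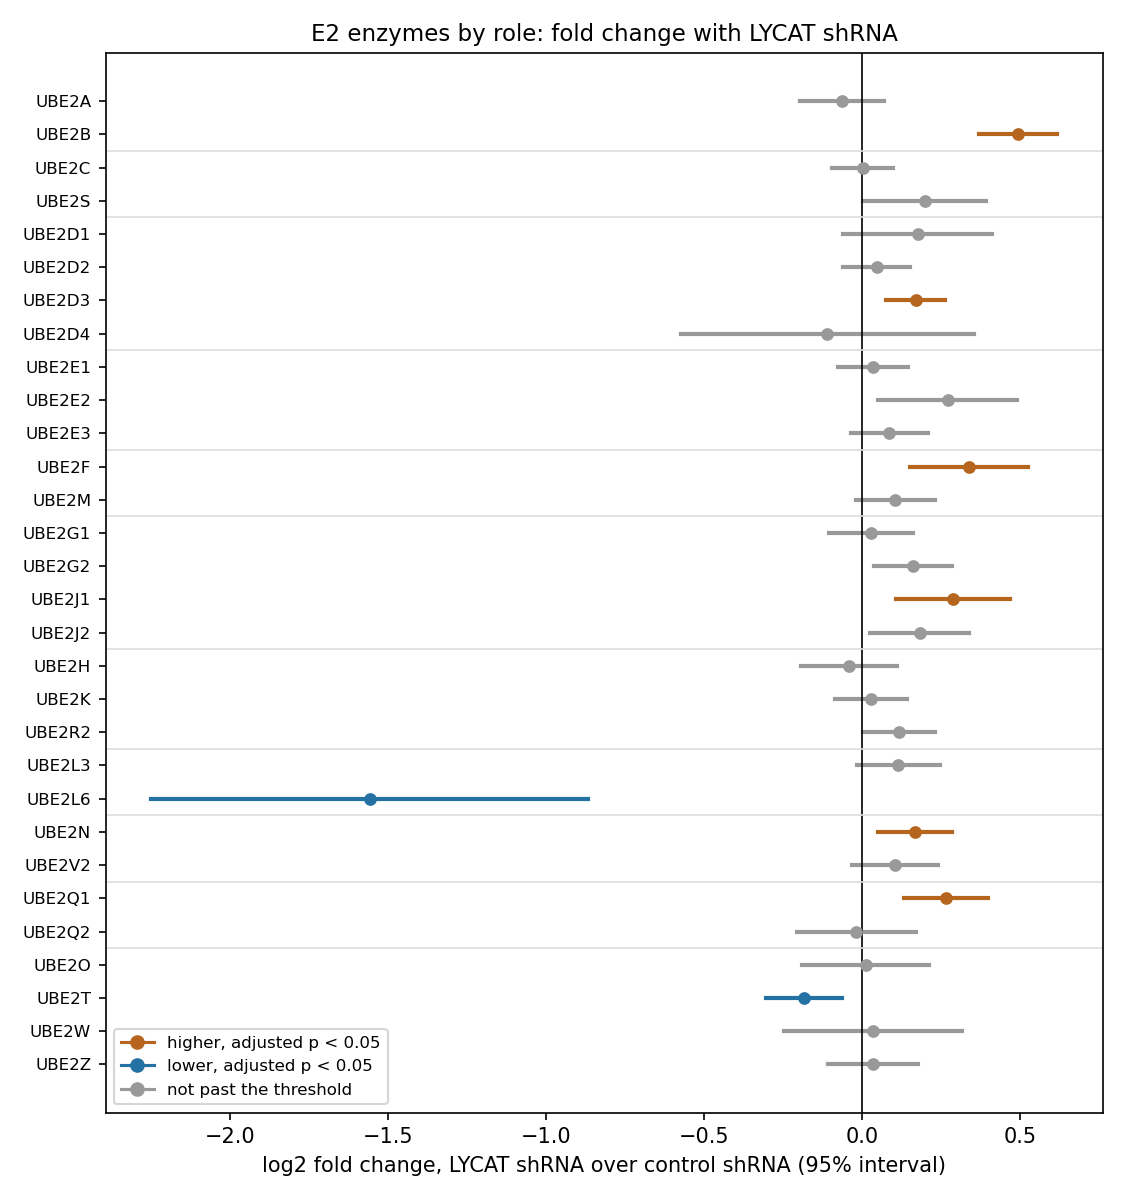
Log2 fold change of 30 of the 31 tested members, LYCAT shRNA over control shRNA, ordered by role with grey lines between roles; points are edgeR estimates and bars 95% intervals. Most points lie between 0 and 0.3, UBE2B lies at 0.49 and UBE2L6 at -1.56 with a wide interval.

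Levels were compared between members per kilobase of exon, because longer transcripts collect more reads. UBE2C, the E2 that starts ubiquitin chains on substrates of the anaphase-promoting complex, stood highest at 371 ± 9.06 CPM per kilobase with LYCAT shRNA and 371 ± 16.2 with control shRNA (SD, n = 3 each). UBE2T followed at 128 ± 2.75 and 145 ± 14.1 CPM per kilobase with LYCAT and control shRNA. Then came UBE2M, the main E2 of NEDD8, with 95.4 ± 3.58 and 88.8 ± 4.24, UBE2E1 with 88.9 ± 6.40 and 86.5 ± 3.38, UBE2D2 with 85.9 ± 4.04 and 83.2 ± 0.840 and UBE2E3 with 71.2 ± 3.87 and 67.1 ± 5.14 CPM per kilobase, LYCAT shRNA first in each. UBE2M, UBE2E1 and UBE2D2 lay close together, and in the order of control levels 14 of the 30 neighbouring pairs of members overlapped in their control libraries. At the low end were UBE2L6, UBE2W and UBE2D4, each under 3 CPM per kilobase in both groups.

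This order depends on the gene length used. With the longest annotated transcript in place of all exons, UBE2E1 came before UBE2T, at 176 and 160 CPM per kilobase in control libraries. UBE2C was highest under both lengths, at 522 CPM per kilobase in control libraries with the longest transcript.

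**Figure D2:**
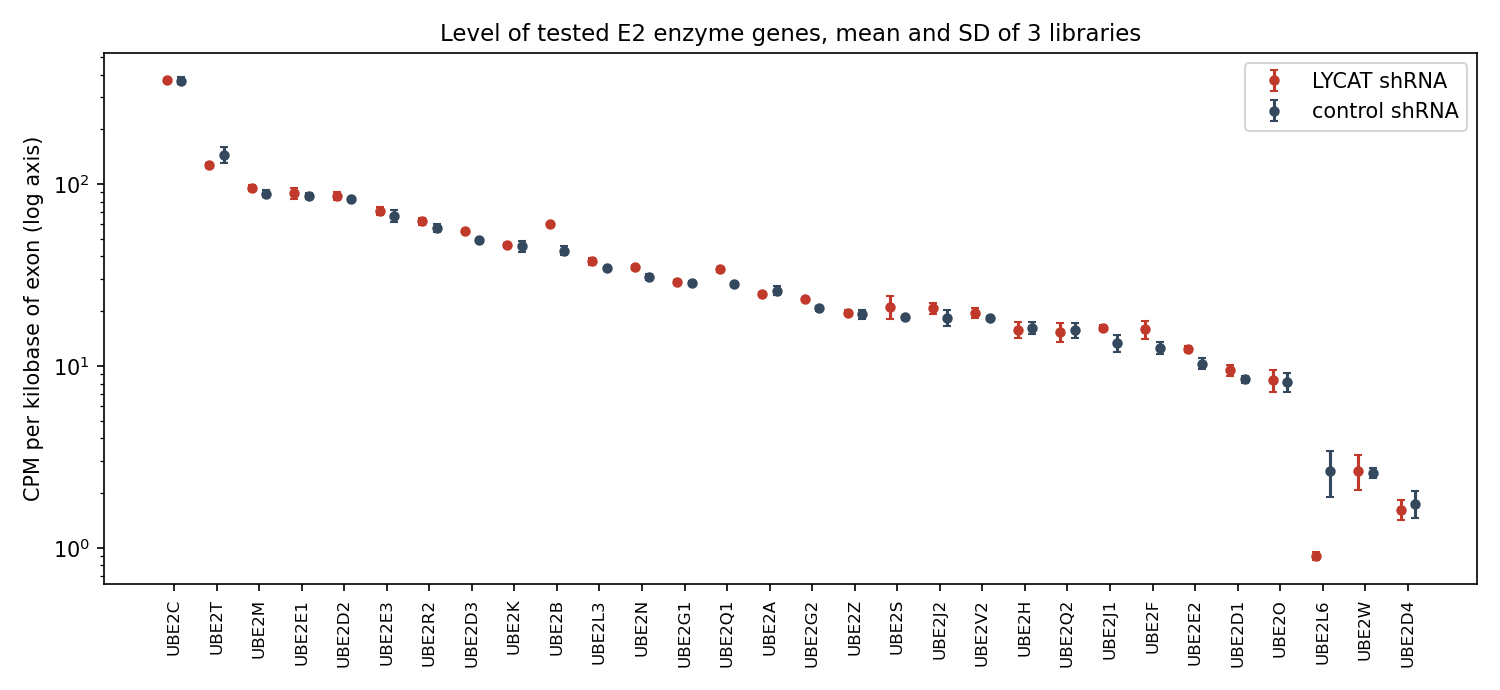
Level of 30 of the 31 tested members as CPM per kilobase of exon on a log axis, for LYCAT shRNA and control shRNA; points are means and bars the SD of 3 libraries, and members are ordered by their control level. UBE2C stands above the rest at 371 in both groups, and the pairs of points are apart for UBE2B and most of all for UBE2L6.

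Of the 4 members that were not tested, UBE2U, UBE2QL1 and the read-through locus UBE2F-SCLY had no count in any library. A count of 0 allows up to 3 counts, or 0.634, 0.962 and 0.695 CPM with LYCAT shRNA and 0.649, 0.609 and 0.736 CPM with control shRNA, by counting error only. UBE2V1, a partner of UBE2N without a catalytic cysteine, had 5, 3 and 2 counts with LYCAT shRNA and 1, 7 and 4 with control shRNA. Its exons are shared with the read-through locus TMEM189-UBE2V1, which was listed at 0 counts in all 6 libraries. The labels do not state how reads in shared exons were counted, so the level of UBE2V1 is uncertain.

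UBE2A and UBE2B are the human counterparts of yeast RAD6. They put ubiquitin on the replication clamp PCNA with RAD18 and on histone H2B with RNF20 and RNF40. UBE2B stood at 200.1, 199.6 and 198.5 CPM with LYCAT shRNA and at 147.9, 132.8 and 144.6 CPM with control shRNA. The LYCAT shRNA libraries lay close together and all above the highest control. UBE2B was 1.41-fold higher (log2 0.49, SE 0.0623, edgeR adjusted p = 1.27e-09), and passed without any one of the 6 libraries.

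Its paralog UBE2A did not follow. UBE2A stood at 127.2, 134.5 and 132.4 CPM with LYCAT shRNA and at 145, 129.9 and 136 CPM with control shRNA. The groups overlapped, and the log2 fold change was -0.06 with a 95% interval of -0.20 to 0.07 (edgeR adjusted p = 0.574), which lies below the interval of 0.37 to 0.62 for UBE2B. UBE2B made up 61.14%, 59.75% and 59.99% of the counts of the pair in the LYCAT shRNA libraries and 50.5%, 50.5% and 51.5% in the control libraries. The summed level of the pair was 331 ± 3.42 CPM with LYCAT shRNA and 279 ± 15.2 CPM with control shRNA (SD, n = 3 each).

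UBE2C and UBE2S act in turn with the anaphase-promoting complex, UBE2C starting the chain and UBE2S extending it. UBE2C stood at 489, 466 and 477 CPM with LYCAT shRNA and at 482, 454 and 495 CPM with control shRNA. The LYCAT shRNA values lie within the control range, and the 95% interval of the log2 fold change was -0.09 to 0.10. UBE2S stood at 55.7, 52.6 and 69.1 CPM with LYCAT shRNA and at 51.4, 51.9 and 52.2 CPM with control shRNA. Its groups did not overlap, by a small margin in 1 library, and it did not pass (log2 0.20, SE 0.0971, edgeR adjusted p = 0.15). Of 16 tested genes of the complex and its regulators, 1 was higher (ANAPC13, a small subunit, log2 0.26) and 1 lower (ANAPC4, log2 -0.32), and 14 did not pass. The share called was 12.5%, where 19.1% of all tested genes were called.

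The UBCH5 family, UBE2D1 to UBE2D4, works with a wide range of E3 ligases, among them MDM2. UBE2D3 stood at 558, 549 and 566 CPM with LYCAT shRNA and at 502, 495 and 489.6 CPM with control shRNA. Every LYCAT shRNA library was above every control library, and the difference was 1.13-fold (log2 0.17, SE 0.0469, edgeR adjusted p = 0.00527). UBE2D2 stood at 301, 293.5 and 321 CPM with LYCAT shRNA and at 298, 297 and 293 CPM with control shRNA, with an interval of -0.06 to 0.15 for its log2 fold change. UBE2D1 (log2 0.18, interval -0.06 to 0.41) and UBE2D4 (log2 -0.11, interval -0.57 to 0.35) were measured at 33.0 ± 2.40 and 7.63 ± 0.953 CPM with LYCAT shRNA and at 29.4 ± 1.35 and 8.25 ± 1.41 CPM with control shRNA (SD, n = 3 each). Neither passed. UBE2D3 held 61.7% ± 0.712 of the counts of the 4 genes with LYCAT shRNA and 59.8% ± 0.115 with control shRNA (SD, n = 3 each).

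The UBE2E enzymes are close relatives of the UBCH5 family with an added stretch at the start of the protein. None of the 3 passed. UBE2E2 stood at 41.9, 39.0 and 40.9 CPM with LYCAT shRNA and at 31.1, 35.7 and 34.5 CPM with control shRNA. The groups did not overlap (log2 0.27, SE 0.11, edgeR adjusted p = 0.0734). UBE2E1 stood at 273 ± 19.7 CPM with LYCAT shRNA and 266 ± 10.4 CPM with control shRNA, and UBE2E3 at 212 ± 11.5 and 199.6 ± 15.3 CPM in the same order (SD, n = 3 each). Their libraries overlapped between the groups.

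NEDD8, a modifier that activates cullin-RING ligases, is carried by UBE2F and UBE2M. UBE2F serves mainly CUL5 with RNF7, and UBE2M the other cullins with RBX1. UBE2F stood at 60.4, 65.8 and 75.7 CPM with LYCAT shRNA and at 48.7, 55.1 and 55.9 CPM with control shRNA. The groups did not overlap, with LYCAT shRNA library 3 highest (1.26-fold, log2 0.34, SE 0.0942, edgeR adjusted p = 0.00576). UBE2F did not pass without LYCAT shRNA replicate 3 (edgeR adjusted p = 0.132) or control replicate 1 (0.0582), nor without control libraries 1 and 2 together (0.197). Its exons overlap those of UBE2F-SCLY on the same strand, so its level carries the same doubt as that of UBE2V1.

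UBE2M stood at 179, 167 and 178 CPM with LYCAT shRNA and at 155, 170.0 and 163 CPM with control shRNA, and did not pass (log2 0.11, SE 0.0624, edgeR adjusted p = 0.249). Its groups overlapped in 1 pair of libraries. CUL5, named after its values were seen, lay the other way and did not pass (log2 -0.12, SE 0.067, edgeR adjusted p = 0.216). It stood at 131, 136.1 and 120 CPM with LYCAT shRNA and at 141, 142 and 136.9 CPM with control shRNA, without overlap. RNF7 was the 1 of 15 tested cullin and neddylation genes that passed, 1.18-fold higher at 173 ± 8.58 CPM with LYCAT shRNA and 146 ± 3.77 CPM with control shRNA (SD, n = 3 each, edgeR adjusted p = 0.00326). It did not pass without control libraries 1 and 2 together (0.0891).

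UBE2J1, UBE2J2, UBE2G1 and UBE2G2 serve the degradation of misfolded proteins of the endoplasmic reticulum. UBE2J1 and UBE2J2 are anchored in its membrane, and UBE2G2 works with ligases such as SYVN1. UBE2J1 stood at 68.7, 67.4 and 72.6 CPM with LYCAT shRNA and at 57.4, 51.1 and 63.3 CPM with control shRNA. The groups did not overlap (1.22-fold, log2 0.29, SE 0.0908, edgeR adjusted p = 0.0162). UBE2J1 did not pass without LYCAT shRNA replicate 1 (0.0536), LYCAT shRNA replicate 3 (0.0969) or control replicate 2 (edgeR adjusted p = 0.101), with DESeq2 (0.0917) or without control libraries 1 and 2 together (0.512).

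UBE2G2 stood at 172, 171 and 174 CPM with LYCAT shRNA and at 151, 159 and 151 CPM with control shRNA. Its groups did not overlap, and it missed the threshold (log2 0.16, SE 0.0623, edgeR adjusted p = 0.056), though it passed without control replicate 2 (0.0228). UBE2J2 had a log2 fold change of 0.18 (SE 0.0791, edgeR adjusted p = 0.0958), with overlapping groups, and also passed without control replicate 2 (0.0457). UBE2G1 stood at 132 ± 2.75 CPM with LYCAT shRNA and 129.5 ± 3.65 CPM with control shRNA (SD, n = 3 each). None of 10 tested ligases and other genes of this degradation route passed. The most abundant were VCP, the segregase that pulls proteins from the membrane, with a log2 fold change of 0.08, and AUP1, which recruits UBE2G2, with 0.10.

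UBE2N joins ubiquitins through lysine 63 when bound to UBE2V1 or UBE2V2, a kind of chain used in signalling and DNA repair. UBE2N stood at 209.9, 226 and 218 CPM with LYCAT shRNA and at 193, 187 and 202 CPM with control shRNA. The groups did not overlap, and the difference was small (log2 0.17, SE 0.0589, edgeR adjusted p = 0.0346). This call was the least stable of the family. Leaving out control replicate 3 kept the call, but leaving out any one of the other 5 libraries ended it (edgeR adjusted p = 0.0525 to 0.137). It also did not pass with DESeq2 (0.1), with unscaled library totals (0.0529) or without control libraries 1 and 2 together (0.386).

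The annotated pseudogene UBE2NL is a copy of UBE2N, between which reads can be split. It stood at 206, 135 and 157 counts with LYCAT shRNA and 165, 172 and 151 counts with control shRNA (log2 0.21, SE 0.11, edgeR adjusted p = 0.195). UBE2V2 did not pass (log2 0.10, SE 0.0683, edgeR adjusted p = 0.313), with 133, 121 and 135 CPM in LYCAT shRNA libraries and 118, 124 and 121 CPM in control libraries. Of 11 tested partners in lysine 63 signalling 2 were higher: BIRC3, a ligase induced by NF-kB (log2 0.40, SE 0.0955, edgeR adjusted p = 0.0013), and RNF8, which marks chromatin at DNA breaks (log2 0.32, SE 0.1, edgeR adjusted p = 0.0138). These were 18.2% of the list, where 19.1% of all tested genes were called.

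UBE2Q1 and UBE2Q2 are E2 enzymes with a long extension before the catalytic core. UBE2Q1 stood at 138, 140.3 and 146 CPM with LYCAT shRNA and at 117, 119 and 117 CPM with control shRNA. All LYCAT shRNA libraries were higher, by 1.20-fold (log2 0.27, SE 0.0669, edgeR adjusted p = 0.00197), and the gene passed without any one library. UBE2Q2 stood at 60.4, 51.6 and 66.1 CPM with LYCAT shRNA and at 55.7, 66.7 and 59.1 CPM with control shRNA, with groups that overlapped (log2 -0.02, interval -0.21 to 0.17). UBE2Q1 held 69.6%, 73.1% and 68.9% of the counts of the pair with LYCAT shRNA and 67.7%, 64.1% and 66.5% with control shRNA.

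**Figure D3:**
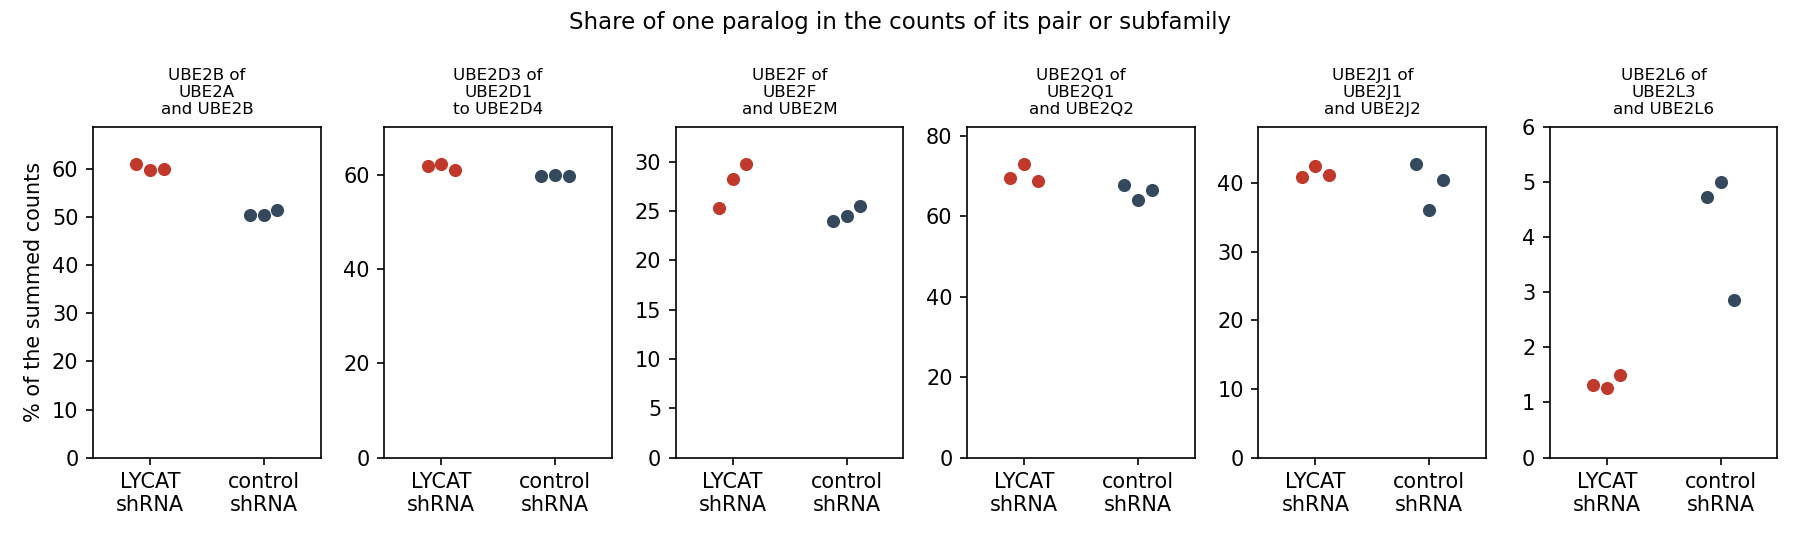
Share of 1 gene in the summed counts of its pair or subfamily, in percent, for each of the 3 libraries of LYCAT shRNA and control shRNA, on axes that start at 0. UBE2B lies above 59% of its pair in all LYCAT shRNA libraries, against 51.5% or less with control shRNA, and UBE2L6 lies below 1.5% with LYCAT shRNA against 2.87% or more with control shRNA.

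UBE2L3 and UBE2L6 are related in sequence and differ in cargo. UBE2L3 carries ubiquitin to HECT and RBR ligases such as ARIH1, and UBE2L6 carries ISG15, the ubiquitin-like protein that interferon induces. UBE2L6 had 9, 6 and 9 counts in the LYCAT shRNA libraries and 31, 34 and 16 counts in the control libraries. On the scaled level this was 1.91, 1.93 and 2.10 CPM with LYCAT shRNA and 6.64, 6.89 and 3.94 CPM with control shRNA. The groups did not overlap, and control library 3 was lower than the other two control libraries. UBE2L6 was 2.94-fold lower, with a 95% interval of 1.82-fold to 4.75-fold (log2 -1.56, SE 0.347, edgeR adjusted p = 0.000466).

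UBE2L6 passed without any one library (log2 -1.75 to -1.42). Without control libraries 1 and 2 together it did not (log2 -0.98, edgeR adjusted p = 0.295), where the lone control is assumed to vary like the other libraries. The summed fibroblast markers, mainly collagen genes, were also higher in control libraries 1 and 2 than in control library 3, as given above. Their part in the UBE2L6 difference was not tested. UBE2L3 stood at 142.5, 151.6 and 138.5 CPM with LYCAT shRNA and at 134, 131 and 133 CPM with control shRNA. Its groups did not overlap, and it did not pass (log2 0.12, SE 0.0658, edgeR adjusted p = 0.232).

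ISG15 and the genes that serve it alone were scarce. The E1 gene UBA7 had no count in any LYCAT shRNA library and 2, 2 and 1 counts in the control libraries, and the E3 gene HERC5 had 1, 0 and 0 counts with LYCAT shRNA and 5, 1 and 0 with control shRNA. ISG15 had 13, 12 and 9 counts with LYCAT shRNA and 16, 13 and 13 with control shRNA (edgeR adjusted p = 0.869). USP18, the protease that removes ISG15, stood at 4.86 ± 0.954 CPM with LYCAT shRNA and 6.17 ± 1.08 CPM with control shRNA (SD, n = 3 each, edgeR adjusted p = 0.477). HERC6, a relative of HERC5, lay the other way at 3.52 ± 1.17 CPM with LYCAT shRNA and 2.72 ± 0.964 CPM with control shRNA and did not pass (log2 0.33, SE 0.367, edgeR adjusted p = 0.597). ARIH1, a ligase that is not tied to ISG15 alone, stood at 102.8 ± 2.29 CPM with LYCAT shRNA and 108.7 ± 8.47 CPM with control shRNA and did not pass either. A difference in these genes of the size seen for UBE2L6 was not found in ISG15, whose fold lower had a 95% interval of 0.654 to 1.81, and was not measurable at this depth in UBA7 and HERC5.

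UBE2T loads ubiquitin on FANCD2 and FANCI with the ligase FANCL, a step in the repair of DNA crosslinks. UBE2T stood at 209, 207 and 216 CPM with LYCAT shRNA and at 249.7, 213 and 257 CPM with control shRNA. Control library 2 lay within the range of the LYCAT shRNA libraries, so the groups overlapped. UBE2T was 1.14-fold lower (log2 -0.18, SE 0.0601, edgeR adjusted p = 0.0221). It did not pass with DESeq2 (0.105), nor without LYCAT shRNA replicate 1 (0.113) or 2 (0.0955) or control replicate 1 (0.128) or 3 (edgeR adjusted p = 0.196). Without control replicate 2 its log2 fold change was -0.26.

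Of 10 tested Fanconi genes 2 were lower, and they are the substrates of UBE2T. FANCI stood at 103 ± 5.18 CPM with LYCAT shRNA and 123 ± 6.24 CPM with control shRNA (log2 -0.25, SE 0.0715, edgeR adjusted p = 0.00711). FANCD2 stood at 96.3 ± 2.27 and 112 ± 4.40 CPM in the same order (log2 -0.22, SE 0.0728, edgeR adjusted p = 0.0232; SD, n = 3 each). Neither passed without control libraries 1 and 2 together (edgeR adjusted p = 0.0787 for FANCI and 0.166 for FANCD2). The list had a median of -0.22, and 1 of its 10 members had a positive value. Over all tested genes 9.26% were lower, 49.0% had a positive value and the median was -0.006. The list was not tested as a group. FANCL, named after its values were seen, did not pass (edgeR adjusted p = 0.177).

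**Figure D4:**
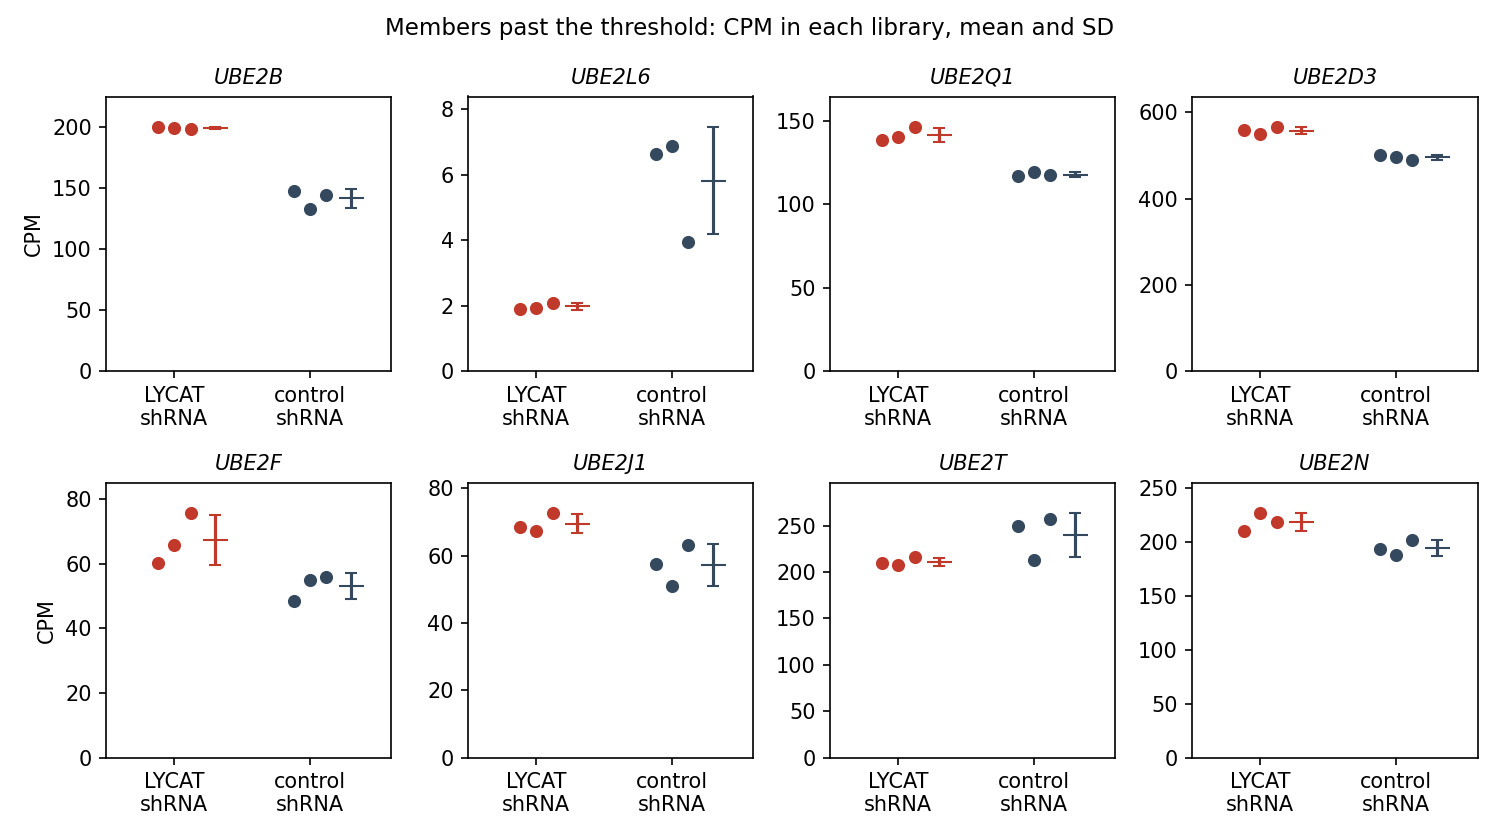
CPM in each library for the 8 members with an edgeR adjusted p under 0.05, LYCAT shRNA left and control shRNA right in each panel, with the mean and SD beside the points and axes that start at 0. The groups are apart in 7 panels and overlap for UBE2T; the UBE2L6 panel shows the lowest level and control library 3 below the other control libraries.

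Promoter sequence was at hand for 28 of the 35 members, from RefSeq (GRCh38.p14). Genes of the G2 phase and mitosis often carry a CHR element (cell cycle genes homology region) and CCAAT boxes near their start. Both were searched on both strands in the 250 bases before each start, as TTTGAA and as CCAAT. Among the 35116 windows of all genes, the first motif was in 13.3%, the second in 32.0% and both in 4.69%. Both were in the windows of UBE2T, UBE2F with its read-through locus, and the undetected UBE2U. The UBE2T and UBE2F windows are shown because these 2 genes were called in opposite directions with the same letters present; the motifs are in capitals and each sequence runs 5′ to 3′ up to the base before the start.
UBE2T, chr1:202341937-202342186, minus strand: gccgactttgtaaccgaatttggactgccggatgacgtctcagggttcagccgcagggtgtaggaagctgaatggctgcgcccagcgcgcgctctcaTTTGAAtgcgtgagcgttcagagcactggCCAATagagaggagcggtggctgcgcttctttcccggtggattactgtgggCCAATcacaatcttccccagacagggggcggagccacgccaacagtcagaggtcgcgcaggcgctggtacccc
UBE2F, chr2:237966764-237967013, plus strand: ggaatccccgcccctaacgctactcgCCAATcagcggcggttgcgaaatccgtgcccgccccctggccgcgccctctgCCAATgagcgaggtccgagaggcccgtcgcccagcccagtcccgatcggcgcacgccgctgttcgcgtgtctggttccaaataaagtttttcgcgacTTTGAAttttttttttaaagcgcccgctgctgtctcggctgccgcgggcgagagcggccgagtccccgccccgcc

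In UBE2T the TTTGAA lies before both CCAAT boxes, at positions -153 to -148 from the start, with the boxes at -124 to -120 and -73 to -69. In UBE2F it lies after them, at -75 to -70, with the boxes at -224 to -220 and -172 to -168. Such matches describe the letters only and name no bound factor. UBE2B, UBE2C, UBE2H, UBE2Q1, UBE2V2 and UBE2W were among those with no window in the table.

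The remaining members were measured without a call. UBE2R2, a close relative of CDC34 that works with cullin-RING ligases, stood at 266, 249 and 247 CPM with LYCAT shRNA and at 243, 239 and 219.7 CPM with control shRNA. Its groups did not overlap (log2 0.12, SE 0.0568, edgeR adjusted p = 0.142), and it passed without control libraries 1 and 2 together (0.0445). UBE2K, which builds lysine 48 chains, UBE2H, the E2 of the CTLH ligase, UBE2O, which also acts as its own ligase, UBE2Z, which takes ubiquitin from the E1 UBA6, and UBE2W, which modifies the start of proteins, had log2 fold changes of -0.04 to 0.04. The 95% intervals of these 5 lay between -0.25 and 0.32, widest for UBE2W.

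The spread between libraries of 1 group was above what counting gives, more so with control shRNA. For pairs of libraries over genes in general, chi-square per degree of freedom was 1.36 to 1.51 with LYCAT shRNA. It was 1.69 to 2.49 with control shRNA, where counting alone gives about 1. The median coefficient of variation over the 31 tested members was 4.65% with LYCAT shRNA and 5.49% with control shRNA, where the counts alone give medians of 4.33% and 4.12%. The highest was 21.5% for UBE2W with LYCAT shRNA and 28.1% for UBE2L6 with control shRNA.

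Other genes of ubiquitin and ubiquitin-like conjugation were read from 13 lists with 126 genes, of which 120 were tested. Of these 11 were higher, 11 were lower and 98 did not pass, or 18.3% called where 19.1% of all tested genes were. Their median log2 fold change was -0.004, where that of the E2 family was 0.10.

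Ubiquitin-like modifiers changed in both directions. UFM1 was higher (log2 0.36, edgeR adjusted p = 0.000167) and SUMO3 was lower (log2 -0.19, edgeR adjusted p = 0.0025). None of 9 tested E1 genes passed. The most abundant were NAE1, a subunit of the E1 of NEDD8 (log2 0.03), and UBA2, a subunit of the E1 of SUMO (log2 -0.01). Of 8 genes with an E2 fold under other names 2 were lower: TSG101, which sorts ubiquitinated cargo (log2 -0.27, edgeR adjusted p = 0.0247), and AKTIP, which acts in vesicle trafficking (log2 -0.62, edgeR adjusted p = 0.0475). Neither passed without control libraries 1 and 2 together (edgeR adjusted p = 0.158 for TSG101 and 0.16 for AKTIP), and AKTIP did not pass without any one of the 6 libraries (0.0551 to 0.255). CDC34, the paralog of UBE2R2, also fell outside the naming rule and stood at 32.3, 31.6 and 30.6 CPM with LYCAT shRNA and at 34.9, 35.5 and 42.6 CPM with control shRNA (edgeR adjusted p = 0.12).

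Among partners of the RAD6 enzymes 1 of 10 passed: HLTF, which extends chains on PCNA, was 1.29-fold lower (edgeR adjusted p = 0.0037). RAD18, RNF20 and RNF40, named after their values were seen, did not pass (edgeR adjusted p = 0.275, 0.908 and 0.353). Among the SUMO proteases SENP1 and SENP7 were lower (log2 -0.41 and -0.68) and SENP2 was higher (log2 0.34). None of these 3 passed without control libraries 1 and 2 together (edgeR adjusted p = 0.0891 for SENP1, 0.356 for SENP7 and 0.119 for SENP2). Of 4 ligases of p53, 2 were higher, MDM2 by 1.72-fold (log2 0.79, SE 0.0582, edgeR adjusted p = 3.07e-19) and RFWD2 by 1.32-fold, and MDM4, a partner of MDM2, was 1.27-fold lower (edgeR adjusted p = 0.000189).

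Among these other genes UFM1, SUMO3, BIRC3, MDM2 and MDM4 passed in all 15 alternatives, and RNF7 without each single library. The other calls each depended on single libraries. Leaving out LYCAT shRNA replicate 1 ended those of TSG101, ANAPC4, ANAPC13, RNF8, SENP2, SENP7, FANCI and FANCD2 (edgeR adjusted p = 0.0598 to 0.161). Leaving out LYCAT shRNA replicate 2 ended those of TSG101, ANAPC4, SENP1 and SENP7 (0.0541 to 0.175). Leaving out LYCAT shRNA replicate 3 ended those of ANAPC4, ANAPC13, HLTF, SENP2, FANCD2 and RFWD2 (0.0506 to 0.225). Without control replicate 1 TSG101, RNF8, SENP7 and FANCI did not pass (0.0565 to 0.169), and without control replicate 2 ANAPC4, SENP2 and FANCD2 did not (0.0671 to 0.0748). Without control replicate 3 TSG101, ANAPC4, ANAPC13, RNF8, SENP1, SENP2, FANCD2 and RFWD2 did not (0.0578 to 0.24). Several calls also ended with DESeq2 on all 6 libraries (DESeq2 adjusted p = 0.0848 to 0.202). These were TSG101, AKTIP, ANAPC4, ANAPC13, RNF8, SENP1, SENP2, SENP7, FANCD2 and RFWD2. ANAPC4 also did not pass with limma-voom (adjusted p = 0.0567). AUP1 and CDC34 did not pass in the fit on all 6 libraries, and AUP1 did without control replicate 2 (edgeR adjusted p = 0.0206).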

How the data were processed

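Whole-number counts per gene symbol for 6 libraries were deposited by the authors in 1 table. The submitters' processing notes name 4 tools (featureCounts 1.5.1, Bowtie2, BWA 0.7.15 and bcl2fastq 2.17) and the builds hg19 and mm10; which aligner and build made the table, and the strand setting, are not given in the sources used here. Columns headed "cycat" with a replicate number were assigned by that name to LYCAT shRNA.

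Genes were filtered with filterByExpr (99.77% of counts kept), scaled by TMM and compared, LYCAT shRNA over control shRNA, with edgeR 4.0.16 (R 4.3.3; glmQLFit, robust=TRUE, glmQLFTest), with Benjamini-Hochberg adjustment over all 11097 tested genes. SE is the size of the log2 fold change divided by the square root of F, and intervals use its degrees of freedom at 95%. Exon lengths came from GENCODE 29. DESeq2 1.42.0 and limma 3.58.1 were alternatives. In counts simulated for this comparison (11097 genes, 200 changed), edgeR recovered 60% of genes changed 1.5-fold and 91% of those changed 2-fold, DESeq2 44% and 79%, and limma-voom 55% and 92%. Of the calls, 4.43%, 3.15% and 3.92% were false in the same order of tools. Every gene was simulated with the same dispersion, which was not estimated from the data, so these rates need not hold here. Every called member except UBE2L6 changed by less than 1.5-fold, the smallest change simulated. Floors cover counting error only; intervals include the variation between libraries.

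Members, lists and the naming rule were chosen with earlier results of these data known. Named in full were members past the threshold, and with values the 5 most abundant others per length and those whose groups did not overlap. Each other list gave its most significant called gene per direction, with at most 2 further called genes, or its 2 most abundant genes where no gene was called. Exons of UBE2N, UBE2A, UBE2D4 and UBE2L3 overlap genes of the count table on the other strand, whose reads cannot be told apart without strand. Those of UBE2D3, UBE2Q1, UBE2E3 and UBE2D4 overlap annotated genes on the other strand that the count table does not list. Exons of UBE2W overlap such an unlisted gene on the same strand. What reads of these genes add to the members was not tested, and no alternative setting addresses it. Single values of some genes, 1 member among them, are not reported here.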

Additional observations from a re-analysis of the deposited data

How the results depend on the processing

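Results were recomputed under 8 other settings, without each of the 6 libraries in turn, and in 1 fit added after seeing the data. Each of the 8 called members kept its direction in every alternative that tested it. The counts of higher and lower members were 6 and 1 with a mean of at least 5 CPM, which leaves UBE2L6 untested, 4 and 1 with DESeq2, and 4 and 1 without control libraries 1 and 2 (the added fit). Leaving out 1 library gave 3 to 6 higher and 1 to 2 lower members. UBE2B, UBE2D3 and UBE2Q1 passed in all 15 alternatives. The family's median log2 fold change was 0.0799 to 0.107 over all alternatives. DESeq2 called 635 of all tested genes higher and 558 lower, and the added fit 573 and 556. Among the other conjugation genes DESeq2 called 6 higher and 5 lower, the added fit 10 and 5, and leaving out 1 library 6 to 14 higher and 4 to 14 lower. LCLAT1 was lower throughout (log2 -1.60 to -1.40). With the replicate number as a block the family's counts were 6 and 2, and those of all tested genes 1044 higher and 1002 lower. Same-numbered libraries did not visibly deviate together (correlations 0.005, -0.0645 and -0.0477). Counting error lowers such correlations, so a weak pairing by number cannot be told from none. The cause of calls lost was not tested, and leaving out a library changes both the number of libraries and the values compared. Depth limits UBE2L6, UBE2D4, UBE2V1 and the ISG15 genes.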
